A study of Mus musculus with 12 samples.

Results

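The 41 genes considered here encode enzymes and regulators of glycolysis, of the entry of pyruvate into mitochondria and of the tricarboxylic acid (TCA) cycle. They were taken by name, and a gene was measured where the array had at least 1 probe set, a group of probes read out as 1 value, annotated with its symbol alone. This held for 36 of the 41 genes, out of 18820 genes measured in the same way. Where a gene had several such probe sets (8 of the 36), the brightest was used. Pdha1, a subunit of pyruvate dehydrogenase, was read only by probe sets that also carry another symbol, and Gpi1, Pfkfb1, Eno1 and Mpc2 were not analysed here.

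Thymidine kinase 2 (TK2) phosphorylates thymidine and deoxycytidine in mitochondria, and its loss depletes mitochondrial DNA. RNA levels were read on 12 whole-transcript Affymetrix arrays of the mouse. Of these, 3 held RNA from muscle of Tk2-/- pups, 3 from muscle of Tk2+/+ pups, 3 from hearts of Tk2-/- pups and 3 from hearts of Tk2+/+ pups. All mice were C57BL/6 and 11 days old, the muscle was that of the hind limb, and knockout and wild-type pups descended from matings of heterozygous parents. The knockout affects every tissue of the animal, so that an effect within muscle cannot be told apart from one of the general condition of the pups. The 3 arrays of a group came from 3 different mice. Values are linear intensities, called signal here, and differences are log2 fold changes of signal + 16. Differences were tested with limma over all 18820 genes, and a gene is called higher or lower where the Benjamini-Hochberg adjusted p was under 0.05. Whole tissue was used, so fewer cells of a type and less RNA per cell cannot be told apart.

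Glycolysis splits glucose into pyruvate in the cytosol, and lactate dehydrogenase turns pyruvate into lactate and back. The mitochondrial pyruvate carrier brings pyruvate into the matrix, where the pyruvate dehydrogenase complex makes acetyl-CoA from it and pyruvate carboxylase makes oxaloacetate. Kinases of the PDK family phosphorylate pyruvate dehydrogenase and switch it off, phosphatases switch it on again, and the TCA cycle then oxidises acetyl-CoA and passes electrons to the respiratory chain. Muscle and heart use partly different isozymes of the pathway, and the cycle is most abundant in fibres and cells that rely on mitochondria.

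Tk2 itself had a signal of 64.7, 44.1 and 48.7 on the Tk2-/- skeletal muscle arrays and of 62.9, 68.5 and 63.1 on the Tk2+/+ arrays, which overlap. In heart the signal was 30.1, 46.2 and 31.7 in Tk2-/- and 70.2, 73.6 and 81.8 in Tk2+/+ mice, lower on every knockout array. Whether these probes cover the part that was disrupted was not given in the sources used here. Summed signals of 15 markers of skeletal muscle fibres were 78658 to 84344 in Tk2-/- muscle and 69600.5 to 92928 in Tk2+/+ muscle, and at most 8388 in any heart. Troponin I of cardiomyocytes, Tnni3, had a mean signal of 29.9 ± 8.45 in Tk2-/- and 34.1 ± 3.48 in Tk2+/+ muscle, against 5895 ± 354 in Tk2-/- and 7066 ± 282 in Tk2+/+ hearts (SD, n = 3 each), so that the tissue labels fit their markers. The Tk2-/- heart arrays were dimmer as a whole. Their mean signal over all probe sets was 147 to 168, against 227 to 243 in Tk2+/+ heart, while it was 225 to 246 in Tk2-/- and 202 to 252 in Tk2+/+ muscle. For this reason the results are also given after quantile normalization within each tissue, which gives the 6 arrays of a tissue 1 distribution. The Xist signal, which marks female animals, was present on 2 of 3 arrays of Tk2-/- muscle, 1 of 3 of Tk2+/+ muscle, 3 of 3 of Tk2-/- heart and 2 of 3 of Tk2+/+ heart, so sex was not balanced between genotypes.

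In skeletal muscle of Tk2-/- mice 7 of the 36 members were higher and 3 were lower. The 7 were Pcx, Pfkfb3, Pdk4, Idh2, Ldhb, Idh3g and Pdk2, and the 3 were Pgam1, Pgam2 and Pfkfb2. Higher signals thus lay at pyruvate carboxylase, at the activator of phosphofructokinase, at 2 kinases of pyruvate dehydrogenase, at 2 isocitrate dehydrogenase genes and at the heart-type lactate dehydrogenase, while 26 members did not pass the threshold. Over all genes 11.6% were higher and 10.9% lower. The members are bright, 31 of the 36 with a mean signal above 256, and among all 4051 genes that bright 24.8% were higher and 12.4% lower, so the members' counts do not stand out from those of bright genes. The median log2 fold change was 0.07 over the members and -0.02 over all genes, and among the bright it was 0.08 over 31 members and 0.09 over 4051 genes. After quantile normalization 6 members were higher and 5 lower, where 14.5% and 14.6% of all genes and 24.0% and 24.9% of the bright genes were. Pdk2 then no longer passed (0.17, adjusted p = 0.0741), and hexokinase Hk1 (-0.26, adjusted p = 0.0274) and lactate dehydrogenase Ldha (-0.42, adjusted p = 0.00239) were lower. The other 9 calls held, at 1.18 for Pcx, 1.04 for Pfkfb3, 0.49 for Ldhb, -0.57 for Pgam1, -0.61 for Pgam2, -0.40 for Pfkfb2, 0.73 for Pdk4, 0.64 for Idh2 and 0.20 for Idh3g. The calls of Pcx, Pfkfb3, Pdk4, Idh2 and Ldhb held when any 1 of the 12 arrays was left out. With the methods' t-test in place of limma none of the 7 increases passed after Benjamini-Hochberg adjustment, the smallest adjusted p among these 5 being 0.0521 for Pcx. The other 5 limma calls each fell away in 4 to 9 of these 12 fits. When any 1 of the 6 muscle arrays was left out, 0 or 1 member was lower, and without Tk2+/+ muscle replicate 2, the brightest muscle array, 11 members were higher and 0 lower. Of the 4051 bright genes 1273 were higher and 336 lower without that array. With median centring of each array 10 members were higher and 0 lower, the decreases of Pgam1, Pgam2 and Pfkfb2 keeping their direction. With that scaling 3357 of all 18820 genes were higher and 1780 lower, and of the 4051 bright genes 1444 and 452.

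**Figure D1:**
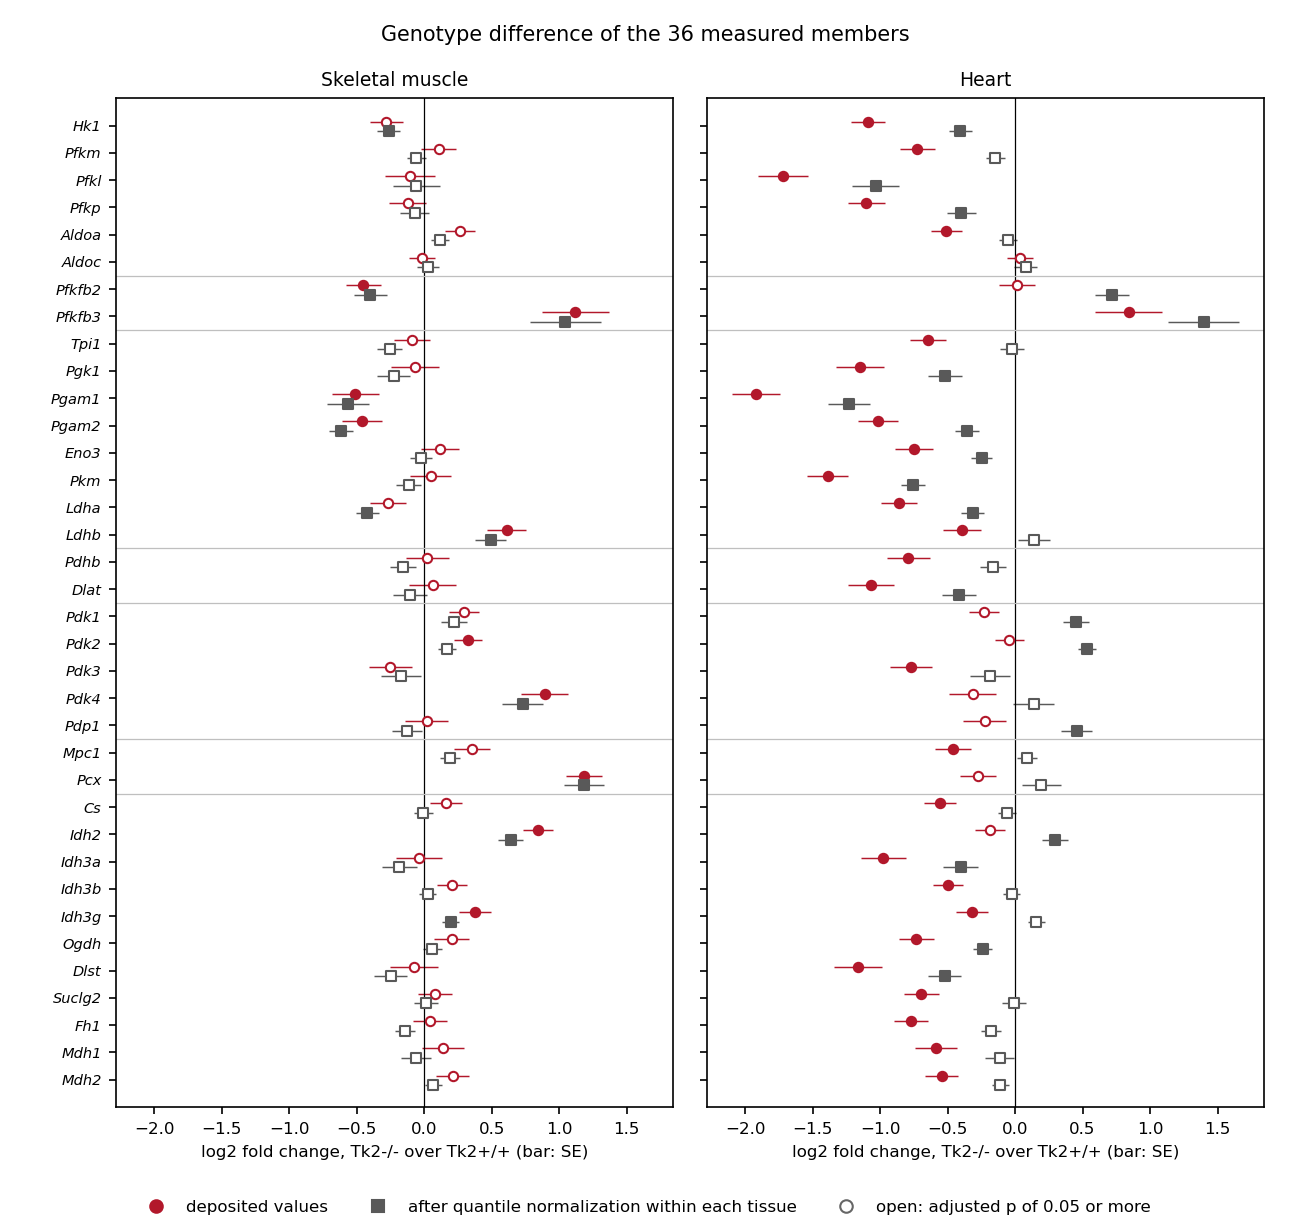
Log2 fold change of each of the 36 members, Tk2-/- over Tk2+/+, in skeletal muscle (left) and heart (right), with the standard error as a bar. Red points are the deposited values, grey squares those after quantile normalization within each tissue, open symbols did not pass the adjusted p of 0.05, and lines separate the roles. In muscle both scalings gave a similar order, with Pcx, Pfkfb3, Pdk4 and Idh2 farthest to the right, and in heart the grey squares lay to the right of the red points for all members.

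In heart 27 members were lower in Tk2-/- mice and 1, Pfkfb3, was higher. Of all genes, 49.0% were lower and 1.99% higher with these values. Of the 4051 bright genes 84.8% were lower and 1.90% higher. The median log2 fold change in heart was -0.72 over the 31 bright members and -0.68 over all bright genes. After quantile normalization 13 members were lower and 6 were higher, where 15.9% and 16.1% of all genes and 23.7% and 21.7% of the bright genes were. The median was then -0.11 over the members and 0.01 over all genes, and among the bright it was -0.15 over 31 members and -0.01 over 4051 genes. Lower with both scalings were Hk1, Pfkl, Pfkp, Pgk1, Pgam1, Pgam2, Eno3, Pkm, Ldha, Dlat, Idh3a, Ogdh and Dlst, and higher with both was Pfkfb3. Of the 8 genes between triose phosphate and lactate 6 were among these 13, and of the 11 cycle genes 3 were, a difference that was not tested. With upper-quartile scaling of each array 8 members were lower and 12 higher in heart and the median over the members was 0.07, so no direction is given there for the set as a whole. Of the 4051 bright genes 856 were lower and 1072 higher in heart with that scaling, with a median of 0.04. Hk1, Pfkl, Pfkp, Pgk1, Pgam1, Pgam2, Pkm and Dlst were lower with each of the 4 scalings tried, median centring included.

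Counted by single arrays, the Tk2-/- arrays lay above all Tk2+/+ arrays for 6 members in muscle and below them for 5, where 16.9% and 18.8% of all genes did so. In heart they lay above for 1 member and below for 29, where 3.16% and 53.3% of all genes did so. Most members are bright, and this count is not given here for the bright genes alone. Of the bright genes 94.7% had a log2 fold change below 0 in heart and 84.8% were called lower, with the deposited values. The 29 are therefore not read as a decrease particular to the members.

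The first steps of glycolysis phosphorylate glucose and commit it to the pathway. Hk1, the hexokinase bound to mitochondria, had a signal of 127, 124 and 125 in Tk2-/- muscle and 156, 163 and 149 in Tk2+/+ muscle. All 3 knockout arrays lay below the wild-type ones, at a log2 fold change of -0.28 (SE 0.12, adjusted p = 0.128). In heart Hk1 had 409.9, 491 and 329 in Tk2-/- and 949.6, 789.9 and 907 in Tk2+/+ mice, without overlap, and fell by 1.09 on the log2 scale (adjusted p = 5.69e-06), or by 0.40 after quantile normalization (adjusted p = 0.00255).

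Phosphofructokinase, the main control point of glycolysis, has a muscle, a liver and a platelet isozyme. The liver isozyme Pfkl was dim in muscle, at 96.1, 95.2 and 111 in Tk2-/- and 95, 121 and 114 in Tk2+/+ mice, and these arrays overlapped. In heart Pfkl had 177, 300.3 and 138 in Tk2-/- and 689, 679.6 and 672 in Tk2+/+ mice. The 3 wild-type hearts were alike, the knockout hearts lay far below them, and the log2 fold change was -1.72 (SE 0.19, adjusted p = 3.96e-06) and -1.03 (adjusted p = 0.000714) after quantile normalization. The platelet isozyme Pfkp had 91.4, 92 and 84.2 in Tk2-/- and 104, 92.1 and 99.7 in Tk2+/+ muscle, slightly lower on every knockout array without passing (-0.12, SE 0.14, adjusted p = 0.625). In heart it had 265, 336 and 201 in Tk2-/- against 553, 574 and 612 in Tk2+/+ mice. Pfkp thus fell in heart by 1.1 (adjusted p = 1.06e-05) and by 0.40 after quantile normalization (adjusted p = 0.0128). The muscle isozyme Pfkm had a mean of 4136 ± 420.0 in Tk2-/- and 3878 ± 780.0 in Tk2+/+ muscle (SD, n = 3 each). It did not pass in muscle and was lower in heart with the deposited values alone, by 0.72 on the log2 scale.

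Aldolase A, Aldoa, which splits fructose 1,6-bisphosphate, had 7837, 8522 and 7619.7 in Tk2-/- and 5925, 7679 and 6453 in Tk2+/+ muscle. The lowest knockout array lay below the highest wild-type one, and the log2 fold change was 0.26 (SE 0.11, adjusted p = 0.12). In heart the signals were 3973, 4665 and 3829 in Tk2-/- and 5507, 6082 and 6113 in Tk2+/+ mice, lower with the deposited values (-0.51, SE 0.11, adjusted p = 0.00133) and not after quantile normalization (-0.05, adjusted p = 0.599). Aldoc, the brain-type aldolase, had mean signals of 15.1 to 23.9 in the 4 groups, close to the offset, and passed in neither tissue.

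Fructose 2,6-bisphosphate switches phosphofructokinase on, and the PFKFB enzymes make and break it. Pfkfb3, the form with the strongest kinase activity, had 620.3, 759.8 and 339 in Tk2-/- muscle and 258, 244 and 224 in Tk2+/+ muscle. Every knockout array lay above the wild-type arrays, but they varied widely among themselves, and the log2 fold change was 1.12 (SE 0.25, adjusted p = 0.00412). In heart Pfkfb3 had 149, 69 and 123 in Tk2-/- and 52.2, 48 and 61.8 in Tk2+/+ mice, again without overlap. The log2 fold change was 0.84 (SE 0.25, adjusted p = 0.00948) and 1.40 (adjusted p = 0.00152) after quantile normalization, and Pfkfb3 was the only member called higher in both tissues with both scalings. Without Tk2-/- heart replicate 1, the brightest for this gene, it no longer passed with the deposited values.

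Pfkfb2, the form abundant in heart, moved differently. Its signal was 78.4, 77.2 and 83.4 in Tk2-/- muscle and 99, 127 and 119.8 in Tk2+/+ muscle, lower on every knockout array, with a log2 fold change of -0.45 (SE 0.13, adjusted p = 0.0223). In heart it was 305, 396 and 264 in Tk2-/- and 284, 333 and 328 in Tk2+/+ mice, and the arrays overlapped (0.01, SE 0.13, adjusted p = 0.95). After quantile normalization Pfkfb2 was higher in Tk2-/- heart (0.72, adjusted p = 0.00094).

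Of the 8 measured genes between triose phosphate and lactate, 1 was higher and 2 were lower in Tk2-/- muscle, and all 8 were lower in heart with the deposited values. After quantile normalization 6 of the 8 remained lower in heart. Of the bright genes 84.8% were lower in heart with the deposited values and 23.7% after quantile normalization. Pgam1, the phosphoglycerate mutase of most tissues, had 212, 236 and 255 in Tk2-/- and 343, 339.6 and 338 in Tk2+/+ muscle. The wild-type arrays were nearly equal and all above the knockout arrays, and the log2 fold change was -0.51 (SE 0.18, adjusted p = 0.0486). In heart it had 217, 319 and 166 in Tk2-/- against 804, 826 and 1102 in Tk2+/+ mice. That was the strongest decrease among the members in heart, at -1.92 (SE 0.18, adjusted p = 1.33e-06) and -1.23 (adjusted p = 0.000117) after quantile normalization. The call in muscle fell away in 9 of the 12 fits with 1 array left out. Pgam2, the muscle-type mutase, had means of 2991 ± 38.4 in Tk2-/- and 4197 ± 997 in Tk2+/+ muscle (SD, n = 3 each), a log2 fold change of -0.46 (SE 0.15, adjusted p = 0.0367). Pgam1 and Pgam2 were the only members lower in both tissues with both scalings.

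Pkm, pyruvate kinase, makes pyruvate in the last step of glycolysis. Its signal was 3575, 4308 and 3715 in Tk2-/- and 3282, 4619 and 3412 in Tk2+/+ muscle, with the arrays of both genotypes interleaved. In heart it was 949.5, 1260.2 and 835 in Tk2-/- and 2631, 2603 and 2701 in Tk2+/+ mice, which gave -1.39 (SE 0.15, adjusted p = 3.97e-06) and -0.76 (adjusted p = 7.31e-05) after quantile normalization. Each knockout heart lay far below all wild-type hearts.

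Lactate dehydrogenase is made of subunits encoded by Ldha, the muscle type, and Ldhb, the heart type. Ldhb had 934, 830.4 and 640.0 in Tk2-/- muscle and 429.8, 588 and 536 in Tk2+/+ muscle, higher on every knockout array, with a log2 fold change of 0.61 (SE 0.14, adjusted p = 0.0058). In heart it had 2243, 2717 and 2187 in Tk2-/- and 3205, 3133 and 3025 in Tk2+/+ mice, lower with the deposited values (-0.39, SE 0.14, adjusted p = 0.0301) and not after quantile normalization (0.14, adjusted p = 0.4). Ldha had means of 4417 ± 545 in Tk2-/- and 5358 ± 1050.4 in Tk2+/+ muscle (SD, n = 3 each), at -0.27 (SE 0.13, adjusted p = 0.189), and passed in muscle only after quantile normalization. The remaining genes of the segment, triose phosphate isomerase Tpi1, phosphoglycerate kinase Pgk1 and muscle enolase Eno3, did not pass in muscle, with log2 fold changes from -0.09 to 0.12. In heart Pgk1 and Eno3 were lower with both scalings, Pgk1 by 1.15 and by 0.52 after quantile normalization. Pgk1 and Pgam1 each had 3 probe sets, of which 2 held identical values on every array, so their signals may be shared with near-identical copies of the genes.

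**Figure D2:**
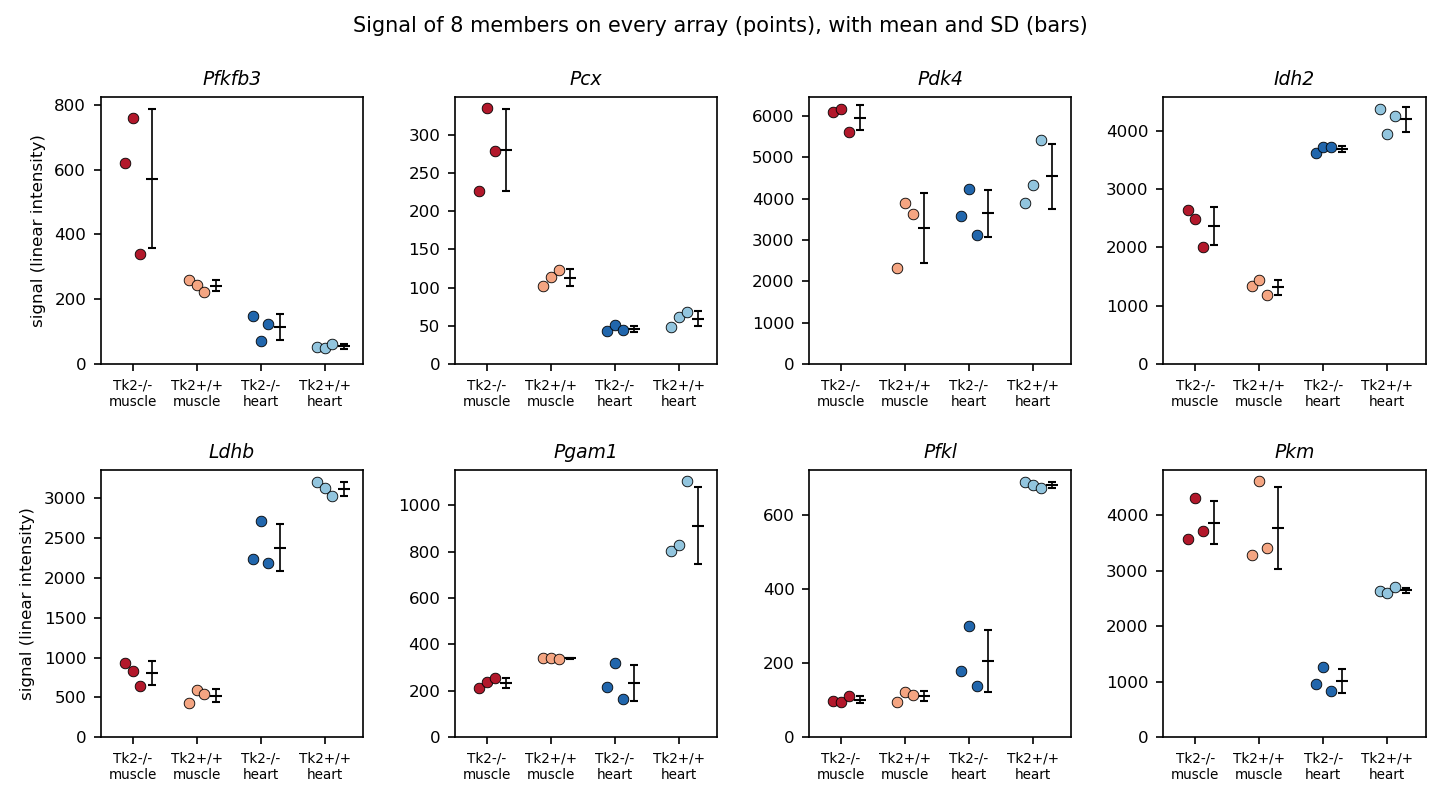
Signal (linear intensity, axis from 0) of 8 members on each of the 12 arrays, with the mean and SD of each group beside the points and Tk2-/- left of Tk2+/+ in each tissue. Pfkfb3, Pcx, Pdk4, Idh2 and Ldhb lay higher in Tk2-/- muscle on all 3 arrays, while Pgam1, Pfkl and Pkm lay lower in Tk2-/- heart on all 3.

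Pyruvate dehydrogenase was represented by its E1 beta subunit Pdhb and its E2 subunit Dlat, the acetyltransferase. Pdhb had 1162, 1348 and 1124 in Tk2-/- and 1082, 1488 and 1043 in Tk2+/+ muscle, and Dlat had 1240.3, 1735 and 1413 in Tk2-/- and 1265, 1682 and 1257 in Tk2+/+ muscle. Neither passed, and both overlapped, at 0.02 (SE 0.16, adjusted p = 0.952) and 0.06 (SE 0.17, adjusted p = 0.874). In heart Pdhb had 1149, 1477 and 947 in Tk2-/- and 2083, 1853 and 2191 in Tk2+/+ mice, lower with the deposited values (-0.79, SE 0.16, adjusted p = 0.000572) and not after quantile normalization (-0.16, adjusted p = 0.234). Dlat had 877, 1245 and 739 in Tk2-/- and 2007, 1991 and 1910.0 in Tk2+/+ hearts and was lower with both, at -1.07 (SE 0.17, adjusted p = 8.76e-05) and after quantile normalization at -0.42 (adjusted p = 0.0236).

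The 4 kinases that inactivate the complex are known to differ in their control. Pdk4 and Pdk2 are the forms of oxidative muscle and of fasting, Pdk1 is a known target of the hypoxia factor HIF and Pdk3 is usually low in muscle. Their promoter sequences are shown here because the 4 genes of 1 family moved unequally, together with those of Pfkfb3 and Pcx, the 2 members with the largest increase in muscle. Each window runs from 250 bases before to 50 bases after a transcription start, from RefSeq (build GRCm38.p6), printed 5′ to 3′ on the strand of the gene. Capitals mark the letters ACGTG or GCGTG, the core of the site bound by HIF, or CACGT or CACGC, the same letters read on the other strand, and overlapping matches run together.
Pdk4, chr6:5496229-5496528, minus strand: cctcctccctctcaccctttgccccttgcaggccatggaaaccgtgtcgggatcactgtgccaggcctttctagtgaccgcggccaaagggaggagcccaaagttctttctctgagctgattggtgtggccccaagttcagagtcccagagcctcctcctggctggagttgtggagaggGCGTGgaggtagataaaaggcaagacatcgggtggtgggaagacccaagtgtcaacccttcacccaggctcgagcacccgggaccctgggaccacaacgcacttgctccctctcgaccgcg
Pdk2, chr11:95040826-95041125, minus strand: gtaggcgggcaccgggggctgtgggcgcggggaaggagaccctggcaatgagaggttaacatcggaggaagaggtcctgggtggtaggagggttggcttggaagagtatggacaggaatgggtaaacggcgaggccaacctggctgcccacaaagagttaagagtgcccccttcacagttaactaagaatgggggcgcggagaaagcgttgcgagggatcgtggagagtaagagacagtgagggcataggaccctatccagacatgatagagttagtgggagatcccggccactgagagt
Pdk2, chr11:95041322-95041621, minus strand: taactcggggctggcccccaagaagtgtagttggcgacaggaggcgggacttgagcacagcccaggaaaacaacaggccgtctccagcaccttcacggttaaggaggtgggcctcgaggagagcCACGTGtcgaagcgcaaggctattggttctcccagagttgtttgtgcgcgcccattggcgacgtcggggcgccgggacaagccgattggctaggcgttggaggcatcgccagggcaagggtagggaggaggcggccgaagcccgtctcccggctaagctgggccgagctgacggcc
Pdk1, chr2:71872974-71873273, plus strand: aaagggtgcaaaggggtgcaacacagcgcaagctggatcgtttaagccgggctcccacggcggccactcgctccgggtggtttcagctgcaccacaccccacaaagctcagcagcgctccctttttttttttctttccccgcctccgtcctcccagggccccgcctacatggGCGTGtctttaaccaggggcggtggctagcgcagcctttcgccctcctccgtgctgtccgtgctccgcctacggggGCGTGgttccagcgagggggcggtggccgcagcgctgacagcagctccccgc
Pdk1, chr2:71874654-71874953, plus strand: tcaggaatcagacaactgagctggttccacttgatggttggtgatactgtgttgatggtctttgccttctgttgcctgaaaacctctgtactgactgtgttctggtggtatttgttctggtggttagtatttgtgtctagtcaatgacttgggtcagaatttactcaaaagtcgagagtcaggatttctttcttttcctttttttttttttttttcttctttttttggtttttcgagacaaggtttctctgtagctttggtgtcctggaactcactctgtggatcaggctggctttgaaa
Pdk3, chrX:93832101-93832400, minus strand: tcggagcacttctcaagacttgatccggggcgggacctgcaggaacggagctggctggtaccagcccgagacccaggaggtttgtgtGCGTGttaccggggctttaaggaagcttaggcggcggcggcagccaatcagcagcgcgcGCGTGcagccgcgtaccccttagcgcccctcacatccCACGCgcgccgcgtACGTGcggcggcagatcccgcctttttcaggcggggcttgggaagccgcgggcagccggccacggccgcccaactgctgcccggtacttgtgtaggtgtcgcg
Pfkfb3, chr2:11502041-11502340, minus strand: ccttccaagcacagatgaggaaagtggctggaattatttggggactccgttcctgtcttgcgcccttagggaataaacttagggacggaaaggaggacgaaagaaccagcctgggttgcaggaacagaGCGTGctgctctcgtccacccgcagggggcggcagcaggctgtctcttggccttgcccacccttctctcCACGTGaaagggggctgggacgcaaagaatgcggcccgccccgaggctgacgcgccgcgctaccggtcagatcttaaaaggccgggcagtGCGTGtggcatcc
Pfkfb3, chr2:11553880-11554179, minus strand: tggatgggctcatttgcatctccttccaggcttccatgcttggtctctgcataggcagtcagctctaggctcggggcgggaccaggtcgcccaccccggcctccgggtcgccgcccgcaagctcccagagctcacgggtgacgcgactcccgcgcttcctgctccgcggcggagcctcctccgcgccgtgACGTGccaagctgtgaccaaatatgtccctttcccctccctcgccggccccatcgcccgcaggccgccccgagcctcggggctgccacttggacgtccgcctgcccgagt
Pcx, chr19:4510222-4510521, plus strand: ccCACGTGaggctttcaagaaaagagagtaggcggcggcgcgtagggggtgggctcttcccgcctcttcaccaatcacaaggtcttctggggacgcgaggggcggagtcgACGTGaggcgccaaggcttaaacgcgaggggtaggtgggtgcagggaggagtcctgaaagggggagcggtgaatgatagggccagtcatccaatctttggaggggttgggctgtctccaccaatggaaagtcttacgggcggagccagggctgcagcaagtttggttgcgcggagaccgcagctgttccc
Pcx, chr19:4594069-4594368, plus strand: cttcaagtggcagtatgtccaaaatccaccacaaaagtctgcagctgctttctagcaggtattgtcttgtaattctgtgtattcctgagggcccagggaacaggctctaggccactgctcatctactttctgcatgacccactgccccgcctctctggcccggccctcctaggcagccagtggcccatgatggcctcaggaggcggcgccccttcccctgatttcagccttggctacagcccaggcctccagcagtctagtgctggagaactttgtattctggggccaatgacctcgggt
The HIF core was found once in the Pdk4 window, at position -71 from the start, and at positions -78 and -2 in the first of the Pdk1 windows, both times as GCGTG. The Pdk3 window had 4 matches, the Pfkfb3 windows 4 and 1, the Pcx windows 3 and 0 and the Pdk2 windows 0 and 2. The letters CACGTG count as 2 matches, 1 on each strand, in the first Pfkfb3, first Pcx and second Pdk2 windows. Of all 32851 windows of this length 43.8% held the HIF core, so a match is common. Of the 55 windows of the 34 members in the table, 72.7% held it, but member windows were richer in G and C (median 60.7%, against 52.7% in all windows), and the motif holds a CG. The FoxO core GTAAACA, read on both strands, stood in 1 member window, of Aldoc, and in 3.65% of all windows. The half-site AAGGTCA, of the ERR receptors, stood in 2 member windows, of Ogdh and Tpi1, and in 4.72% of all windows. These are matches of letters in a short window and no measurement of binding.

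Pdk4 had 6095, 6169 and 5609 in Tk2-/- muscle and 2322, 3904 and 3626 in Tk2+/+ muscle. The 3 knockout arrays lay close together and above all wild-type arrays, and the log2 fold change was 0.89 (SE 0.18, adjusted p = 0.00183) and 0.73 (adjusted p = 0.00241) after quantile normalization. In heart Pdk4 had 3592, 4233 and 3113 in Tk2-/- and 3884, 4342 and 5414 in Tk2+/+ mice, which overlapped, at -0.31 (SE 0.18, adjusted p = 0.161). Pdk2 had 3424, 3745 and 3155 in Tk2-/- and 2521, 3183 and 2560.1 in Tk2+/+ muscle. One knockout array lay below the highest wild-type array, and the log2 fold change was 0.32 (SE 0.11, adjusted p = 0.0397). In heart Pdk2 was at 2141, 2174 and 2167 in Tk2-/- and 2214, 2123 and 2343 in Tk2+/+ mice, at -0.04 (SE 0.11, adjusted p = 0.794), and higher after quantile normalization (0.54, adjusted p = 0.0001).

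Pdk3 was dim, with 43.3, 68.5 and 61.2 in Tk2-/- and 79.4, 68.9 and 64.7 in Tk2+/+ muscle, which overlapped. In heart it had 61.6, 56.1 and 52.1 in Tk2-/- against 138, 80.7 and 111 in Tk2+/+ mice, lower with the deposited values (-0.77, SE 0.16, adjusted p = 0.000663) and not after quantile normalization (-0.19, adjusted p = 0.375). Pdk1 had means of 438 ± 59.9 in Tk2-/- and 354 ± 36 in Tk2+/+ muscle, and of 471 ± 20.9 in Tk2-/- and 556 ± 42.4 in Tk2+/+ heart (SD, n = 3 each). In muscle every knockout array lay above the wild-type ones, at 0.29 (SE 0.11, adjusted p = 0.0783), and in heart every knockout array lay below, at -0.23 (SE 0.11, adjusted p = 0.103). Neither passed with the deposited values, and in heart Pdk1 was higher after quantile normalization (0.45, adjusted p = 0.00339). Pdp1, the phosphatase that reactivates the complex, had a log2 fold change of 0.02 (SE 0.16, adjusted p = 0.961) in muscle and -0.23 (SE 0.16, adjusted p = 0.277) in heart, where it was higher after quantile normalization (0.46, adjusted p = 0.0086).

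Pcx, pyruvate carboxylase, replenishes the cycle with oxaloacetate and serves fat synthesis in adipocytes. It showed the largest increase of all members in muscle. The signal was 227, 335 and 279 in Tk2-/- and 102, 114 and 123 in Tk2+/+ muscle, without overlap, at 1.19 (SE 0.13, adjusted p = 1.82e-05). In heart it was 43.1, 50.5 and 44.5 in Tk2-/- and 48.7, 61.5 and 67.9 in Tk2+/+ mice, low in both and overlapping (-0.27, SE 0.13, adjusted p = 0.107). Mpc1, a subunit of the pyruvate carrier, had 2849.7, 3003 and 2567 in Tk2-/- and 1929, 2730.1 and 1992 in Tk2+/+ muscle, with 1 knockout array below the highest wild-type array (0.35, SE 0.13, adjusted p = 0.0746). In heart Mpc1 had 1989, 2511 and 2018 in Tk2-/- and 2814, 3055 and 3049 in Tk2+/+ mice, lower with the deposited values (-0.46, SE 0.13, adjusted p = 0.0089) and not after quantile normalization (0.09, adjusted p = 0.4).

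Most adipocyte markers were higher in Tk2-/- muscle, as were Pcx and Pdk4. Of 6 measured markers 5 were higher in Tk2-/- muscle and leptin, Lep, was lower (-0.63, SE 0.11, adjusted p = 0.000614). Their summed signal was 3539 to 4957 on the Tk2-/- and 2029 to 2509.7 on the Tk2+/+ muscle arrays. Cidec, a lipid droplet protein, had 335, 709 and 499 in Tk2-/- and 87.8, 67.8 and 153 in Tk2+/+ muscle, and the adipokine Adipoq had 208, 446 and 442 in Tk2-/- and 107, 94.8 and 194 in Tk2+/+ muscle. In heart the sum was 1911 to 2436 in Tk2-/- and 2438 to 2929.6 in Tk2+/+ mice, most of it from Fabp4, while Adipoq and Cidec were at 25.15 or less. The part of these cells in the result of Pcx and Pdk4 was not tested.

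All 11 member genes of the TCA cycle were measured. In Tk2-/- muscle 2 were higher and none was lower, and the median log2 fold change of the 11 was 0.16, or 0.01 after quantile normalization. In heart 10 were lower with the deposited values, and 3 were lower and 1 was higher after quantile normalization. Of the bright genes, 24.8% were higher and 12.4% lower in muscle and 84.8% were lower in heart with the deposited values. After quantile normalization 23.7% of them were lower and 21.7% higher in heart. Idh2, the NADP-dependent isocitrate dehydrogenase of mitochondria, had 2630.2, 2478 and 2002 in Tk2-/- and 1335, 1429.9 and 1173 in Tk2+/+ muscle. Each knockout array lay above all wild-type arrays, and the log2 fold change was 0.84 (SE 0.11, adjusted p = 7.18e-05) and 0.64 (adjusted p = 0.000216) after quantile normalization. In heart Idh2 had 3623, 3714 and 3723 in Tk2-/- and 4375, 3948 and 4253 in Tk2+/+ mice. Every knockout heart lay below the wild-type ones, but Idh2 was the 1 cycle gene that did not pass there (-0.18, SE 0.11, adjusted p = 0.203), and it was higher after quantile normalization (0.30, adjusted p = 0.0285).

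The NAD-dependent isocitrate dehydrogenase has subunits encoded by Idh3a, Idh3b and Idh3g. Idh3g had 4314, 4510.5 and 3909 in Tk2-/- and 2867, 3964 and 3055 in Tk2+/+ muscle, with 1 wild-type array above the lowest knockout array. The log2 fold change was 0.38 (SE 0.12, adjusted p = 0.0342) and 0.20 (adjusted p = 0.0276) after quantile normalization, and in heart, with 3382, 3892 and 3366 in Tk2-/- and 4330.1, 4335 and 4597 in Tk2+/+ mice, it was -0.32 (SE 0.12, adjusted p = 0.0355). The catalytic subunit Idh3a had 2056, 3004 and 2496 in Tk2-/- and 2275, 3169.9 and 2319 in Tk2+/+ muscle, which overlapped (-0.04, SE 0.17, adjusted p = 0.919). In heart Idh3a had 1492, 1856 and 1215 in Tk2-/- against 2884, 3141 and 2872 in Tk2+/+ mice, lower with both scalings (-0.98, SE 0.17, adjusted p = 0.000149, and -0.40, adjusted p = 0.0307 after quantile normalization). Subunits of 1 enzyme thus had unequal values, with Idh3b at 0.20 in muscle and -0.50 in heart.

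Dlst, the E2 subunit of the 2-oxoglutarate dehydrogenase complex, had 1396, 1729.8 and 1285 in Tk2-/- and 1431, 1839 and 1388 in Tk2+/+ muscle, interleaved (-0.08, SE 0.18, adjusted p = 0.838). In heart it had 982, 1397 and 773 in Tk2-/- and 2346, 2252 and 2329 in Tk2+/+ mice, the strongest decrease among cycle genes there (-1.17, SE 0.18, adjusted p = 5.26e-05, and -0.52, adjusted p = 0.00559 after quantile normalization). Ogdh, its E1 subunit, fell in heart by 0.73 (adjusted p = 0.000198) and by 0.24 after quantile normalization (adjusted p = 0.0205). Citrate synthase Cs, succinyl-CoA ligase Suclg2, fumarase Fh1 and the malate dehydrogenases Mdh1 of the cytosol and Mdh2 of mitochondria did not pass in muscle, from 0.04 for Fh1 to 0.21 for Mdh2. In heart these 5 genes and Idh3b were lower with the deposited values, from -0.77 to -0.50, and none of the 6 passed after quantile normalization.

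Some slow-fibre markers were higher in Tk2-/- muscle, as were Ldhb and Idh2, genes that in mice are most abundant in oxidative fibres and heart. Of 8 such markers, which also mark heart, 4 were higher in Tk2-/- muscle and Casq2 was lower (-1.0, SE 0.18, adjusted p = 0.00073). The calcium pump Atp2a2 had 2343, 2126 and 2216 in Tk2-/- and 1188, 1148 and 1321 in Tk2+/+ muscle, at 0.86 (SE 0.11, adjusted p = 3.62e-05). The summed signal of the 8 was 7351 to 10402 in Tk2-/- and 4314 to 6869.7 in Tk2+/+ muscle, without overlap. After quantile normalization 1 of the 8 remained higher. Of the 15 markers of skeletal muscle fibres none passed in muscle. Of 6 markers of developing fibres 3 were lower in Tk2-/- muscle, among them Actc1, the cardiac actin of the fetal fibre, with 2411, 2507 and 2420.4 in Tk2-/- and 6656, 8765 and 6565 in Tk2+/+ muscle. Their sum was 7323 to 8813 in Tk2-/- and 11129 to 12687 in Tk2+/+ muscle, without overlap. Of 11 cardiomyocyte markers, which share Actc1, 2 were lower and 2, Sln and Pln, were higher in Tk2-/- muscle. Their sum was 3810.4 to 4514 in Tk2-/- and 7694 to 10139 in Tk2+/+ muscle, most of it from Actc1, while Myl7, Nppa, Nppb and Ryr2 were at 12.3 or less on every muscle array. Markers of proliferating cells were lower in both tissues, 5 of 5 in each, with sums of 80.8 to 227 in Tk2-/- and 509 to 1012 in Tk2+/+ muscle, and of 55.2 to 59.2 in Tk2-/- and 467 to 1093 in Tk2+/+ heart. Of 7 fibroblast markers 5 were lower in muscle and 7 in heart. In heart all 6 leucocyte and all 5 endothelial markers were lower with the deposited values, and 5 and 3 of them after quantile normalization. The 2 measured erythroid markers were both lower in Tk2-/- heart and passed in neither direction in muscle. Where no scaling is named, the heart counts of markers are those with the deposited values. With these values 49.0% of all genes and 84.8% of the bright genes were lower in Tk2-/- heart. The part of any of these cells in the members' results was not tested.

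Whether the genotype effect differed between the tissues was tested as the effect in muscle minus that in heart. With the deposited values this difference passed for 30 members, all with a higher value in muscle, where 41.3% of all genes passed in that direction and 1.39% in the other. Of the 4051 bright genes 84.1% passed with a higher value in muscle, close to the share of the members. After quantile normalization 3 members passed in each direction, where 5.14% and 4.98% of all genes and 7.9% and 8% of the bright genes did. Pfkl, Pkm and Pcx passed with both scalings. The difference was 1.62 (SE 0.26, adjusted p = 0.000306) for Pfkl and 0.98 (adjusted p = 0.0246) after quantile normalization. For Pkm it was 1.44 (SE 0.21, adjusted p = 0.000186) and 0.64 (adjusted p = 0.00769), and for Pcx 1.46 (SE 0.19, adjusted p = 9.75e-05) and 0.99 (adjusted p = 0.0107). Pfkl and Pkm were lower in Tk2-/- heart without passing in muscle, and Pcx was higher in Tk2-/- muscle without passing in heart. Pfkfb2 (-1.12, adjusted p = 0.00221), Pdk2 (-0.37, adjusted p = 0.0273) and Pdp1 (-0.59, adjusted p = 0.0378) passed after quantile normalization alone, with lower values in muscle.

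A ratio between 2 members on 1 array is not moved by a factor common to that array, apart from the offset, so 9 pairs were compared by the difference of their log2 values, in both tissues. The smallest p that 3 against 3 arrays allow is 0.1, and no difference could pass 0.05. Differences between pairs of groups are read here, not the level of 1 gene against another. Ldha minus Ldhb was 2.13, 2.58 and 2.64 in Tk2-/- muscle and 3.36, 3.44 and 3.17 in Tk2+/+ muscle. The ratio was lower on every knockout array, by 0.88 in mean, and in heart it was -0.16, -0.31 and -0.20 in Tk2-/- and 0.06, 0.29 and 0.37 in Tk2+/+ mice, again lower on every array (exact permutation p = 0.1 in each tissue). Idh2 minus Idh3a was 0.35, -0.28 and -0.32 in Tk2-/- and -0.76, -1.14 and -0.97 in Tk2+/+ muscle. In heart it was 1.27, 0.99 and 1.60 in Tk2-/- and 0.60, 0.33 and 0.56 in Tk2+/+ mice, so that this ratio was higher on every knockout array of both tissues (exact permutation p = 0.1 in each).

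Pdk4 minus Pdk2 was 0.83, 0.72 and 0.83 in Tk2-/- and -0.12, 0.29 and 0.50 in Tk2+/+ muscle, without overlap (exact permutation p = 0.1), and overlapped in heart (exact permutation p = 0.2). Pdk4 minus Pdk1 was higher by 0.60 in Tk2-/- muscle on every array. In heart the ratios of the muscle-type to the other isozyme were higher on every Tk2-/- array, by 1.0 for Pfkm minus Pfkl, by 0.38 for Pfkm minus Pfkp and by 0.90 for Pgam2 minus Pgam1, while the same ratios overlapped between genotypes in muscle. Mdh1 minus Mdh2 overlapped in both tissues. Aldoa minus Aldoc is not read, since Aldoc lay close to the offset and its log2 value hardly follows the brightness of an array. Of the other 8 pairs 4 did not overlap in muscle and 5 in heart. Among all pairs of the 4051 bright genes 65.1% did not overlap in muscle and 61.2% in heart, so ratios without overlap were as common elsewhere. After adjustment over all 18 comparisons the smallest p was 0.164.

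**Figure D3:**
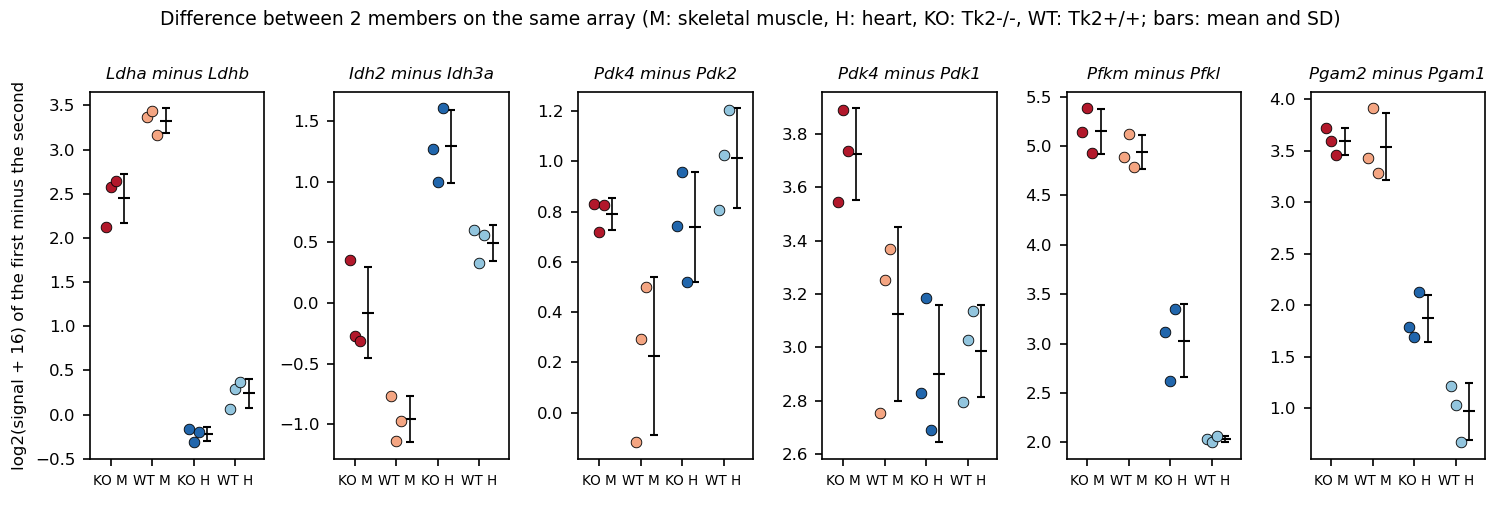
Difference of log2(signal + 16) between 2 members on the same array, for 6 pairs, with Tk2-/- left of Tk2+/+ in each tissue, 1 point per array and the mean and SD beside them. Ldha minus Ldhb lay lower and Idh2 minus Idh3a higher on the Tk2-/- arrays of both tissues, and Pfkm minus Pfkl and Pgam2 minus Pgam1 lay higher in Tk2-/- heart alone.

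Between the tissues of Tk2-/- mice 20 members were higher in muscle and 6 were lower, where 59.5% and 4.55% of all genes were. In Tk2+/+ mice 11 were higher in muscle and 22 lower, where 30.6% and 18.4% of all genes were. Of the bright genes 74.7% were higher and 7.60% lower in muscle in Tk2-/- mice, and 17.2% higher and 36.8% lower in Tk2+/+ mice. With quantile normalization there were 15 higher and 10 lower in Tk2-/- mice and 13 higher and 13 lower in Tk2+/+ mice. Of all 18820 genes 9585 were then higher and 1789 lower in Tk2-/- mice, and 9736 and 1831 in Tk2+/+ mice. Of the bright genes 52.5% were then higher and 18.1% lower in Tk2-/- mice, and 51.9% and 17.9% in Tk2+/+ mice. In wild-type mice 10 of the 11 cycle genes were lower in muscle and none was higher (5 were lower after quantile normalization), and 5 of the 8 genes between triose phosphate and lactate were higher in muscle (6 after quantile normalization). The isozymes split by tissue in both genotypes. Ldhb was lower in muscle by 1.56 in Tk2-/- and by 2.57 in Tk2+/+ mice, Hk1 by 1.57 in Tk2-/- and 2.38 in Tk2+/+ mice, and Pfkp by 1.40 in Tk2-/- and 2.38 in Tk2+/+ mice, all on the log2 scale. Pfkfb3 was higher in muscle by 2.16 in Tk2-/- and 1.88 in Tk2+/+ mice, and Pgam2 by 1.76 in Tk2-/- and 1.20 in Tk2+/+ mice. Pcx was higher in muscle by 2.24 in Tk2-/- mice and by 0.78 in Tk2+/+ mice. Idh2 was lower in muscle by 0.64 in Tk2-/- and 1.67 in Tk2+/+ mice. The dimmer Tk2-/- hearts enter every comparison of the tissues in that genotype. After quantile normalization they also enter that of Tk2+/+ mice, since the 6 arrays of a tissue were given 1 distribution.

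**Figure D4:**
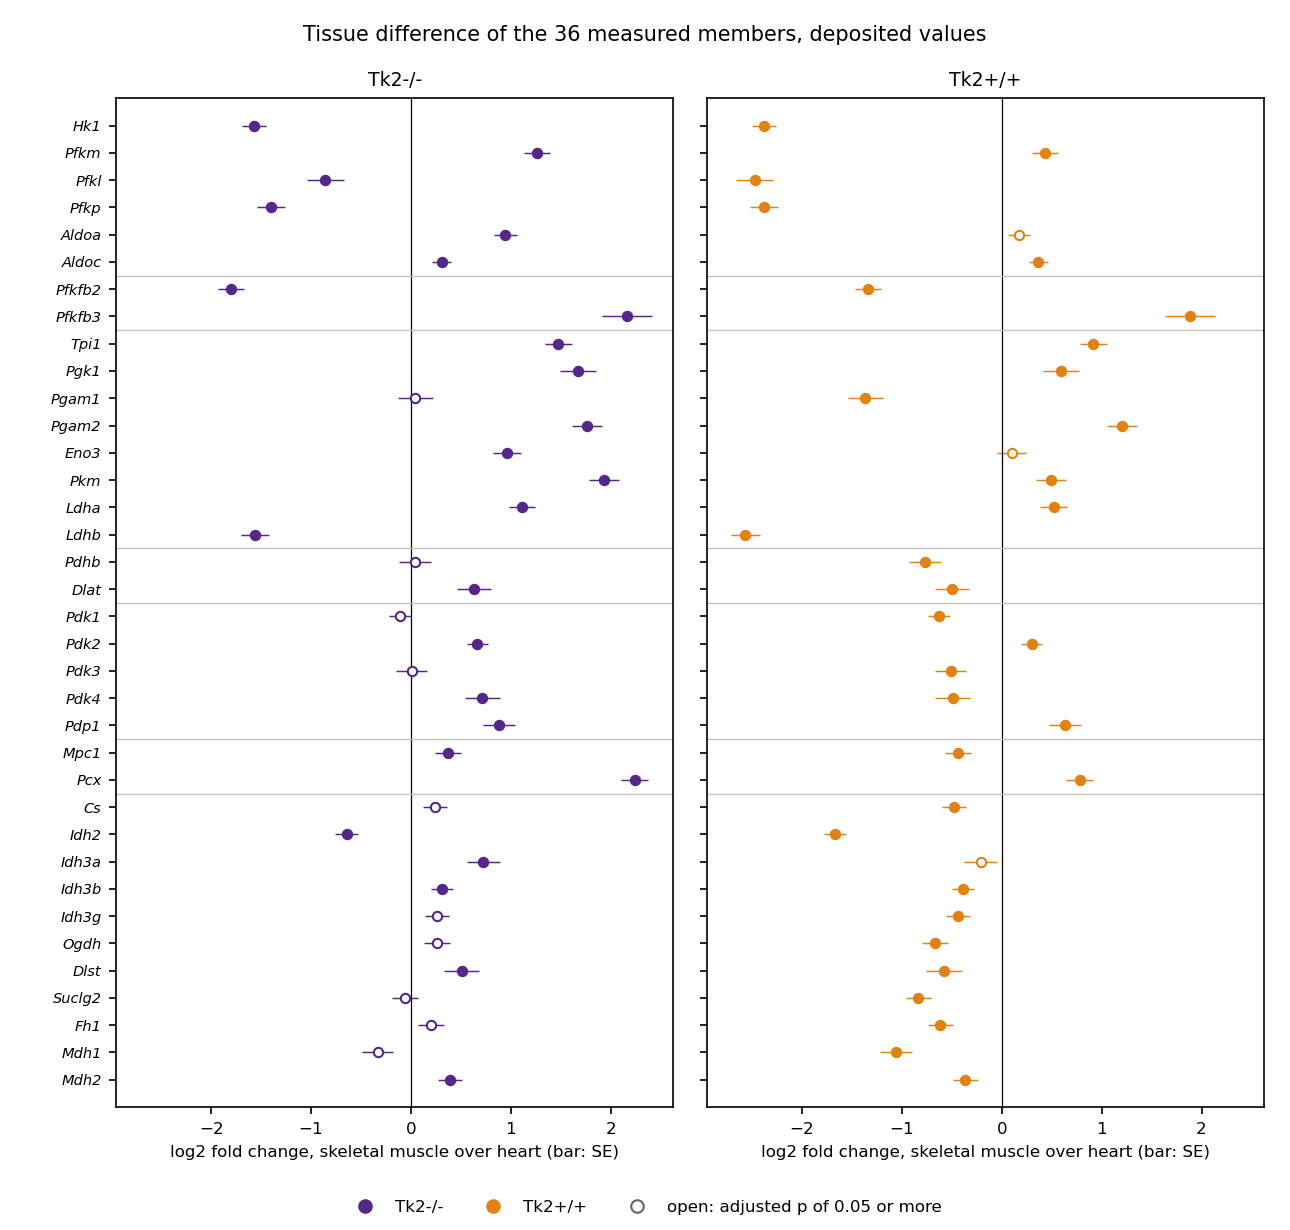
Log2 fold change of skeletal muscle over heart for the 36 members with the deposited values, in Tk2-/- (left) and Tk2+/+ mice (right), with the standard error as a bar and open symbols where the adjusted p was 0.05 or more. Hk1, Pfkl, Pfkp, Pfkfb2, Ldhb and Idh2 lay left of 0 in both genotypes, and the 11 cycle genes all lay left of 0 in Tk2+/+ mice.

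The rest of the pathways was taken from lists that do not overlap with the members. Of 15 other genes of glycolysis none was higher and 3 were lower in Tk2-/- muscle, Bpgm of the 2,3-bisphosphoglycerate shunt (-0.84, SE 0.16, adjusted p = 0.00121), Pfkfb4 (-0.64, SE 0.17, adjusted p = 0.0116) and glycerol-3-phosphate dehydrogenase Gpd1 (-0.51, SE 0.17, adjusted p = 0.0388). Of 12 genes around pyruvate dehydrogenase and pyruvate use 3 were higher and none was lower. The largest of these was Gpt2, the mitochondrial alanine aminotransferase, with 1455, 1625 and 1468 in Tk2-/- and 427, 530.0 and 415 in Tk2+/+ muscle (1.70, SE 0.13, adjusted p = 6.33e-07). The others were the phosphatase Pdp2 (0.56, SE 0.11, adjusted p = 0.00162) and Pck2 (0.32, SE 0.11, adjusted p = 0.046). In heart 10 of the 12 were lower, and 3 after quantile normalization. Lower in heart with the deposited values were 49.0% of all genes and 84.8% of the bright genes, and after quantile normalization 15.9% and 23.7%. Of 11 other genes of the cycle 1 was higher in muscle, the cytosolic isocitrate dehydrogenase Idh1 (0.66, SE 0.16, adjusted p = 0.00596), and none was lower (3 after quantile normalization). The 4 subunits of succinate dehydrogenase, named after their values were seen, did not pass with the deposited values, at -0.23 for Sdhd to 0.31 for Sdha.

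Of 17 glycogen genes 4 were higher and 3 lower in Tk2-/- muscle. Higher were branching enzyme Gbe1 (0.83, SE 0.18, adjusted p = 0.0036), glycogen synthase Gys1 (0.56, SE 0.19, adjusted p = 0.0407), glycogenin Gyg and the phosphorylase kinase subunit Phka2. Lower were Stbd1, which tethers glycogen to membranes, with 50.5 ± 15.5 in Tk2-/- and 195 ± 56.3 in Tk2+/+ muscle (SD, n = 3 each; -1.66, SE 0.19, adjusted p = 2.39e-05), the kinase subunit Phkg1 (-0.53, SE 0.15, adjusted p = 0.0197) and the brain phosphorylase Pygb. Gyg, Phka2 and Pygb are named after their values were seen, and Gys1 and Pygb did not pass after quantile normalization. Of 8 transporters of glucose and lactate 3 glucose transporters were higher, Slc2a1 with 462, 601 and 495 in Tk2-/- and 199.8, 204 and 204 in Tk2+/+ muscle (1.28, SE 0.14, adjusted p = 1.11e-05), the insulin-regulated Slc2a4 (0.61, SE 0.18, adjusted p = 0.0209) and Slc2a3 (0.48, SE 0.11, adjusted p = 0.0054), and Slc2a12 was lower (-0.43, SE 0.13, adjusted p = 0.0229). Among 6 genes of the NADH shuttles Gpd2, the partner of Gpd1 in mitochondria, was the 1 that passed in muscle, and it was lower (-0.69, SE 0.16, adjusted p = 0.00524). In heart hexokinase 2, Hk2, had 205, 311 and 188 in Tk2-/- and 719.8, 825 and 675 in Tk2+/+ mice and was lower with both scalings (-1.62, SE 0.19, adjusted p = 6.24e-06, and -0.93, adjusted p = 0.00118 after quantile normalization). Bpgm, Phkg1 and Gpd2 were lower in Tk2-/- heart too, and with both scalings, at -1.46, -1.19 and -0.98 with the deposited values.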

How the data were processed

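Total RNA of hind limb muscle and heart was purified with RNeasy columns, amplified with an Ambion WT Expression kit and hybridised to 12 arrays. Per the labels and the study's methods, the authors deposited 1 linear intensity per probe set and array. The submitters' notes give Affymetrix Expression Console and the PLIER algorithm, with no version, and the normalization was not given in the sources used here. Of 35556 probe sets, 21218 carry 1 gene symbol in the platform annotation, and these gave 18820 genes, the brightest probe set standing for a gene. An offset of 16 was added before log2. The 4 groups were fitted together in limma 3.58.1 (R 4.3.3; 8 residual degrees of freedom), p-values being adjusted after Benjamini and Hochberg across the 18820 genes and called under 0.05. Pairs of genes on 1 array were compared with exact two-sided permutation tests. The procedure was tested on simulated data.

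The members and gene lists were chosen with earlier results of these data known, so they are no independent support. Values of every array are given for the 2 members of each role with the largest change in each tissue and for those whose effect differed between tissues with both scalings. Of other genes, at most the 4 with the largest change past the threshold in a list are named, unless stated. Alternatives were quantile normalization within each tissue, median centring, upper-quartile scaling, an offset of 1, a filter on genes with a mean signal under 32, the mean of a gene's probe sets, array weights, sex from Xist as a covariate, each tissue or genotype alone, the replicate number as a block, the methods' t-test and leaving out each array. The number of arrays, 3 in a group, limits the precision.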

Additional observations from a re-analysis of the deposited data

Results flagged for a closer look

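The effect of the knockout differed between the tissues, tested as the effect in skeletal muscle minus that in heart with limma, for 30 members with the deposited values. Of these, Pfkl, Pcx and Pkm passed after quantile normalization too. The difference on the log2 scale was 1.62 for Pfkl, 1.46 for Pcx and 1.44 for Pkm with the deposited values, and smaller after quantile normalization, at 0.98 for Pfkl, 0.99 for Pcx and 0.64 for Pkm. The dimmer arrays of Tk2-/- heart enter all of these differences, and 41.3% of all genes and 84.1% of the 4051 genes with a mean signal above 256, as 31 of the 36 members have, passed in the same direction. The part of array brightness in the differences of these 3 genes was not tested beyond the scalings given.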

How the results depend on the processing

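The 5 increases in muscle of Pcx, Pfkfb3, Pdk4, Idh2 and Ldhb passed under each of the limma alternatives. In muscle the 3 decreases were 5 after quantile normalization, 0 with median centring and 1 with an offset of 1 or with sex as a covariate. In heart 1 member was higher and 27 lower with the deposited values. The counts were 6 higher and 13 lower after quantile normalization, 5 and 13 with median centring and 12 and 8 with upper-quartile scaling, and the median of -0.67 was -0.11, -0.23 and 0.065 under these scalings. Of the 4051 bright genes 880 were higher and 962 lower in heart after quantile normalization. With median centring these counts were 360 and 1872, and with upper-quartile scaling 1072 and 856. For the effect in muscle minus that in heart, 30 higher and 0 lower were 3 and 3 after quantile normalization, 15 and 2 with median centring and 4 and 4 with upper-quartile scaling, and 1 member was lower without dim genes or with array weights. Of the bright genes 2141 were higher and 88 lower in this difference with median centring, and 449 and 334 with upper-quartile scaling. Between tissues of Tk2-/- mice, 20 higher and 6 lower were 11 and 12 with median centring and 10 and 17 with upper-quartile scaling, and 10 were lower after quantile normalization. Bright genes there were 1659 higher and 776 lower with median centring, and 1317 and 1119 with upper-quartile scaling. In Tk2+/+ mice 13 were lower after quantile normalization in place of 22. The cause of these moves was not tested beyond the scaling itself.

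Turns of direction are listed here only for members that passed with the deposited values or with the scaling named. Members that passed with neither may also have turned and are left out. Among those listed, the heart direction turned positive after quantile normalization for Mpc1 (0.088), Ldhb (0.14), Idh3g (0.16), Idh2 (0.30), Pdk1 (0.45), Pdp1 (0.46) and Pdk2 (0.54), and with median centring for Ldhb (0.050), Idh3g (0.13), Idh2 (0.26) and Pdk2 (0.40). With upper-quartile scaling it did so for Eno3 (0.00097), Ogdh (0.014), Pfkm (0.022), Suclg2 (0.033), Tpi1 (0.10), Mdh1 (0.16), Cs (0.19), Mdh2 (0.21), Aldoa (0.24), Idh3b (0.25), Mpc1 (0.29), Ldhb (0.35), Idh3g (0.43), Pdk4 (0.43), Pdk1 (0.50), Pdp1 (0.50), Idh2 (0.56) and Pdk2 (0.70). The difference between tissues was followed only for members in which it passed after quantile normalization. Among these it turned for Pdk2 (-0.37 after quantile normalization, -0.41 with upper-quartile scaling) and Pdp1 (-0.59 and -0.52).

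The methods' t-test at a fold of 2 and an unadjusted p below the threshold gave 2 higher and 0 lower in muscle (Pfkfb3 and Pcx) and 0 higher and 9 lower in heart. After Benjamini-Hochberg adjustment it gave 0 higher and 1 lower in muscle, the 1 being a member that limma did not call. In heart it then gave 0 and 28, and between tissues of Tk2+/+ mice 4 higher and 14 lower. At an unadjusted p below the threshold it gave 5 and 3 in muscle and 1 and 29 in heart.

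With 1 array left out, 5 to 11 members were higher and 0 to 3 lower in muscle, 0 to 1 higher and 25 to 27 lower in heart, and 27 to 31 had a higher and 0 to 1 a lower effect in muscle than in heart. Between tissues 16 to 22 were higher and 6 to 7 lower in Tk2-/- mice, and 7 to 11 higher and 17 to 22 lower in Tk2+/+ mice, with 7 higher without Tk2+/+ muscle replicate 2. The median ran from -0.0049 to 0.20 in muscle and from -0.75 to -0.60 in heart.

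Deviations from the group mean were correlated between Tk2-/- and Tk2+/+ arrays of the same replicate number. The values were -0.03, 0.12 and 0.13 in muscle and -0.19, -0.17 and -0.05 in heart. Between muscle and heart arrays of the same number they were 0.10, -0.19 and 0.01 in Tk2+/+ and -0.07, -0.09 and -0.08 in Tk2-/- mice. With 3 arrays in a group, such values cannot show whether equal numbers share a litter, animal or day. With a replicate block 8 members were higher and 2 lower in muscle, 1 higher and 27 lower in heart, 20 higher and 7 lower between tissues in Tk2-/- and 10 higher and 22 lower in Tk2+/+ mice.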
